A study of Mus musculus with 6 samples.

Results

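Nonsense-mediated decay (NMD) is the pathway that recognises mRNAs on which translation ends too early and degrades them. Its core factors were followed here through 9 listed genes, Upf1, Upf2, Upf3a, Upf3b, Smg1, Smg5, Smg6, Smg8 and Smg9. They were found by symbol among the 53700 genes of the count tables, and each symbol matched 1 gene identifier. All 9 passed the filter on low counts. Levels come from polyA RNA-seq of germinal vesicle (GV) oocytes of the mouse, which are arrested in meiotic prophase and store maternal mRNA. There were 3 libraries of wild-type and 3 of Zar1 knockout oocytes, each from a pool of 10 oocytes on a C57BL/6N strain background. ZAR1 binds RNA in oocytes, and the comparison asks which mRNA levels differ when it is missing. The sources used here give neither the deleted part of Zar1 nor the age of the animals, nor if pools are from different animals, so p-values measure only the spread between these pools. The number of oocytes was 10 in every pool. For any other cells carried along, fewer cells and less RNA per cell cannot be told apart.

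UPF1 is an RNA helicase that binds mRNA and is the centre of the pathway. UPF2 and the UPF3 paralogs UPF3A and UPF3B link it to the exon junction complex, a marker that splicing leaves on mRNA. A complex of the kinase SMG1 with its regulators SMG8 and SMG9 phosphorylates UPF1, and phosphorylated UPF1 recruits SMG6, an endonuclease, and the adaptor SMG5, steps that lead to decay of the mRNA. mRNAs of several of these factors are themselves known to be degraded by NMD in other cells. Fully grown oocytes are close to transcriptionally silent, so in them an mRNA level depends on earlier synthesis and on decay. The libraries are of polyA RNA and tail length was not measured. A change in tail length thus cannot be told apart from a change in mRNA amount, and levels that rose or fell below are levels in polyA RNA.

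Each library held between 32126555 and 39148833 counts in genes. Zar1, the deleted gene, had 15245, 13612 and 12810 counts in wild-type replicates 1, 2 and 3 and 69, 96 and 226 in the knockout replicates. All 10 oocyte markers checked had a mean level of at least 1 CPM (the usual depth-scaled count unit, here with library totals corrected by TMM). Their summed level lay between 18339.9 and 19700.2 CPM in wild type and between 19256.8 and 20785 in knockout. Single markers differed more than the sum. Zp1, Zp2, Zp3 and Nlrp5 were higher in all knockout libraries than in any wild-type library, as with Zp2 at 1091 to 1298 against 1643 to 1939 CPM. Bmp15 was lower, with 2863 to 3297 against 2179 to 2762 CPM, and the other oocyte markers overlapped. Among all genes that passed the filter on low counts, 47.8% had no overlap between genotypes, in either direction. Of 12 granulosa and cumulus cell markers 4 reached a mean of 1 CPM, and the list summed to 102 to 116 CPM in wild type and 119.6 to 135 in knockout, with no overlap between genotypes. Nr5a2 and Cyp19a1 carried most of that sum, and the 4 markers did not go one way. Nr5a2 had 49.6 to 55.5 CPM in wild type and 73.8 to 84.2 in knockout, and Has2 1.45 to 2.14 against 3.35 to 6.22. Kitl was lower, with 3.74 to 4.37 against 0.487 to 1.34 CPM, and Cyp19a1 overlapped, with 42.4 to 53.8 against 35.6 to 51.0 CPM. Among the markers below a mean of 1 CPM, Foxl2, Amh and Ptx3 did not exceed 0.192, 0.107 and 0.0573 CPM in any library. Others reached more in single libraries. Fshr had 1.26 CPM in knockout replicate 2, and Inhba 1.04 and Amhr2 0.671 CPM in wild-type replicate 1. Inha had 0.793 and Lhcgr 0.657 CPM in knockout replicate 3. Of 6 blood markers 1 reached a mean of 1 CPM, and the 4 globin genes had no count in any library. The gene that reached it, Cd68, had 0.454 to 1.26 CPM in wild type and 0.945 to 2.28 in knockout. Ptprc had 0.0745 CPM in wild-type replicate 1 and no count elsewhere. The part of other cells in the results below was not tested.

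The end of the mRNA matters in oocytes, because stored mRNAs that are later polyadenylated usually carry a cytoplasmic polyadenylation element (CPE) close to the polyadenylation signal. The 30 bases around the last annotated signal are shown for the members that changed, Upf3b, Smg5 and Smg1, and for the most abundant member, Smg8. They were read from the longest coding transcripts of GENCODE M21, run 5′ to 3′ on the transcript strand, and have the AATAAA signal in capitals. Their GRCm38 positions are chrX:37091697-37091726 on the minus strand, chr3:88362294-88362323 on the plus strand, chr7:118131326-118131355 on the minus strand and chr11:87077762-87077791 on the minus strand, all in the 3′ UTR. The counts were made on another build, mm39.
Upf3b: cttgtttttgtaatgctgtcAATAAAtttc
Smg5: cagacttgagactcaagcttAATAAAgacc
Smg1: ctgtttttcaaaaaAATAAAAATAAAggtt
Smg8: ttgatatttattgtaaaatcAATAAAagtt
All 9 members had AATAAA in the last 100 bases of the transcript, as did 66.4% of 12369 tested coding genes. None of the 9 had TTTTAT or TTTTAAT, the letters searched as CPE on the transcript strand, in that window, against 19.5% of those genes with at least 1 of them. These matches describe annotated ends, and the ends used in the oocyte were not measured. Smg1 has the longest annotated 3′ UTR of the 9, with 4233 bases, longer than that of 93.0% of tested coding genes, and Smg8 the shortest, with 221 bases. The median over tested genes was 1116.5 bases, and Smg5 (1230 bases) and Upf3b (834) lay on either side of it.

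In oocytes without Zar1, Upf3b and Smg5 rose and Smg1 fell, and the other 6 members did not pass the test. Upf3b, the link to the exon junction complex, rose 1.91-fold, Smg5, an adaptor of phosphorylated UPF1, rose 1.85-fold, and Smg1, the kinase, was 1.40-fold lower. A gene was called at a Benjamini-Hochberg adjusted p of 0.05 over 16473 tested genes in edgeR's quasi-likelihood test. By this rule 3 of 9 members were called, against 33.4% of all tested genes, so the share of members that changed is that of genes at large. By direction, 2 of 9 rose and 1 of 9 fell, against 14.9% and 18.5% of all tested genes. The median log2 fold change of the members was 0.23 and that of all tested genes 0.0075. Levels are relative to the rest of each library, so a change in total mRNA per oocyte would not show.

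**Figure D1:**
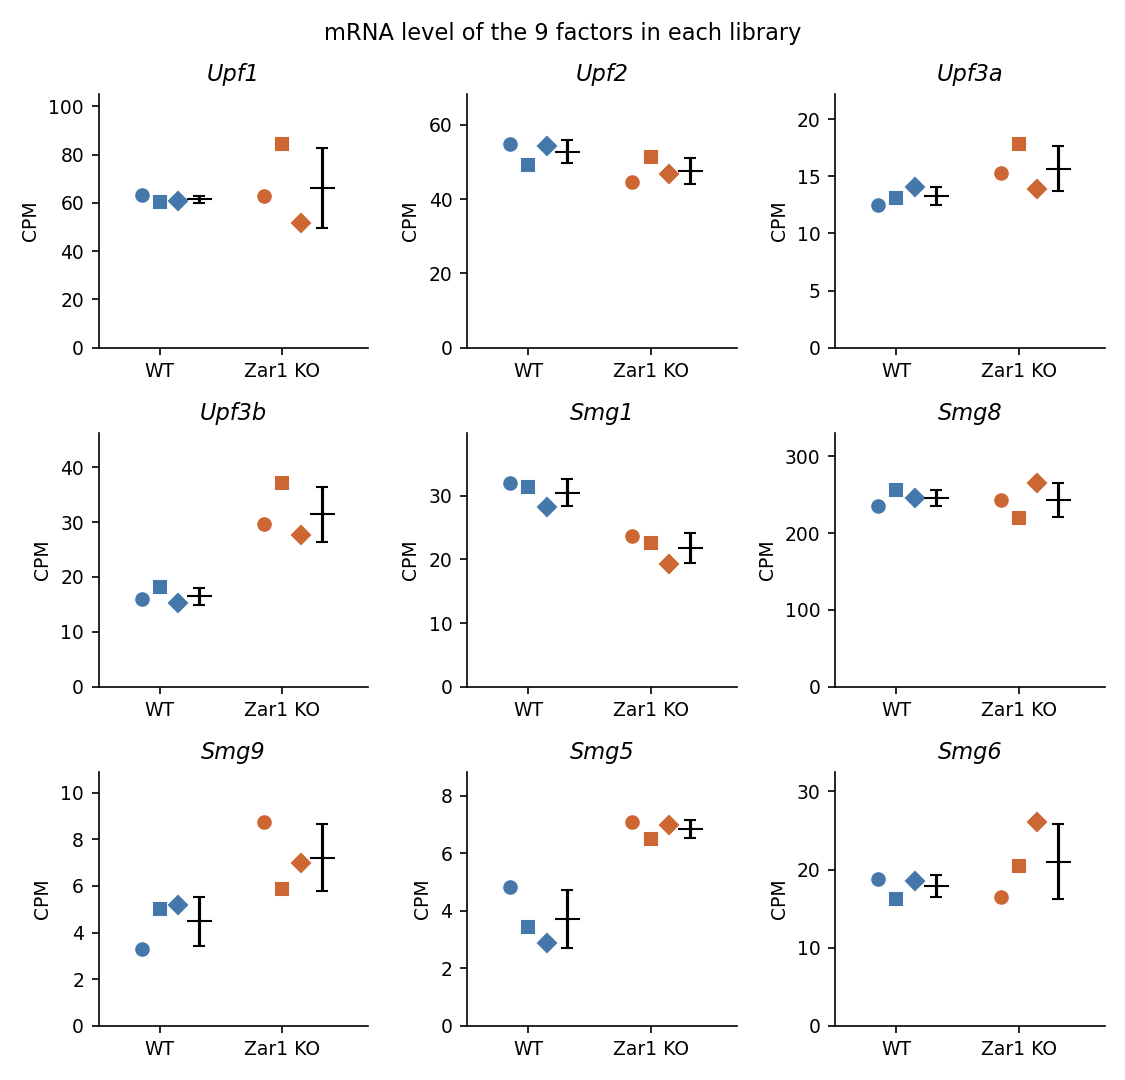
Level of each of the 9 mRNAs in CPM (vertical axes, from 0) in wild-type (blue) and Zar1 knockout (orange) libraries. Circles, squares and diamonds are replicates 1, 2 and 3, and black bars are the mean ± SD of 3 libraries. The groups do not overlap in Upf3b, Smg1, Smg9 and Smg5.

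Among the UPF genes, Upf1 (ENSMUSG00000058301.9) had 63.1, 60.5 and 61.0 CPM in wild-type replicates 1, 2 and 3 and 62.8, 84.3 and 51.7 CPM in the knockout replicates. Knockout replicate 2 lay above and knockout replicate 3 below every wild-type library, and the groups overlapped. The mean was 61.5 ± 1.37 CPM in wild type and 66.2 ± 16.6 in knockout (SD, n = 3 each), with a log2 fold change of 0.11 ± 0.16 (SE, edgeR adjusted p = 0.643). Leaving out knockout replicate 2 gave a log2 fold change of -0.096 (edgeR adjusted p = 0.541). In the annotation, 68 bases of Upf1 exons lie opposite Cers1 and 63 opposite Gdf1, and the sources used here name no strand setting for the counting, so reads from there cannot be assigned with certainty.

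Upf2 (ENSMUSG00000043241.15), which bridges UPF1 and UPF3, had 54.7, 49.1 and 54.4 CPM in wild type and 44.6, 51.3 and 46.8 CPM in knockout. Knockout replicate 2 fell within the wild-type range, and the other knockout libraries lay below it. The log2 fold change was -0.15 ± 0.09 (edgeR adjusted p = 0.259). With offsets for transcript GC content and length it was 0.12 (adjusted p = 0.397), so its sign turned. The Upf2 to Upf1 count ratio within libraries ranged from 0.812 to 0.892 in wild type and from 0.609 to 0.907 in knockout (log2 difference -0.23, exact two-sided permutation p = 0.4, and 0.48 after Benjamini-Hochberg adjustment over 6 ratios). That difference was -0.094 when knockout replicate 2 was left out and -0.38 when knockout replicate 3 was left out.

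Of the UPF3 paralogs, Upf3b passed the test and Upf3a did not. Upf3b (ENSMUSG00000036572.17) had 644, 641 and 493 counts in wild type and 1034, 1382 and 1010 in knockout, or 16.0, 18.2 and 15.2 CPM against 29.6, 37.1 and 27.6 CPM. Every knockout library was higher than every wild-type library. The mean rose from 16.5 ± 1.55 to 31.4 ± 4.98 CPM (log2 fold change 0.93 ± 0.14, edgeR adjusted p = 0.00141). Upf3b was called in each of the 16 other settings of the analysis, with log2 fold changes from 0.81 without knockout replicate 2 to 1.12 with GC and length offsets.

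Upf3a (ENSMUSG00000038398.9), the autosomal paralog, had 12.5, 13.1 and 14.1 CPM in wild type and 15.3, 17.8 and 13.9 CPM in knockout. Of the knockout libraries, replicate 3 was inside the range of wild type and the others above it. The log2 fold change was 0.24 ± 0.14 (edgeR adjusted p = 0.225). UPF3B is the stronger NMD activator in most cells studied, and UPF3A has been described both as a weaker activator and as an antagonist. A ratio of 2 genes within a library does not depend on how libraries are scaled to each other. The Upf3a to Upf3b count ratio was 0.781, 0.722 and 0.927 in wild type and 0.516, 0.480 and 0.502 in knockout. All 3 knockout ratios were below all 3 wild-type ratios, by -0.69 on the log2 scale (exact two-sided permutation p = 0.1, the smallest that 3 against 3 libraries allow, and 0.15 adjusted over the same 6 ratios).

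Of the 3 members of the kinase complex, Smg1 passed the test and Smg8 and Smg9 did not. Smg1 (ENSMUSG00000030655.16) had 31.9, 31.4 and 28.2 CPM in wild type and 23.7, 22.6 and 19.2 CPM in knockout. All knockout libraries lay below all wild-type libraries. The mean fell from 30.5 ± 2.05 to 21.9 ± 2.36 CPM (log2 fold change -0.48 ± 0.12, edgeR adjusted p = 0.0149). It missed the threshold when wild-type replicate 1 (adjusted p = 0.0581) or wild-type replicate 2 (0.0548) was left out. With GC and length offsets the log2 fold change was -0.22 (adjusted p = 0.235). The Smg1 transcript used for those offsets, of 15557 bases, is the longest among the 9 members.

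Smg8 (ENSMUSG00000020495.14), which encodes a regulator that restrains the kinase, was the most abundant member by far. It had 9487, 9026 and 7994 counts in wild type and 8518, 8209 and 9684 in knockout, or 236, 256 and 246 CPM against 244, 220.3 and 265 CPM. The knockout libraries spanned the whole wild-type range. The log2 fold change was -0.018 ± 0.084 (edgeR adjusted p = 0.895), and its sign differed between settings. Smg8 alone took between 53.5% and 56.5% of the summed CPM of the 9 members in wild type and between 47.2% and 57.1% in knockout.

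Smg9 (ENSMUSG00000002210.12), which holds SMG8 to the kinase, had 132, 177 and 168 counts in wild type and 305, 219 and 256 in knockout. That is 3.28, 5.02 and 5.18 CPM against 8.73, 5.88 and 7.004 CPM. The groups did not overlap. Without overlap were 4 of 9 members, 3 higher and 1 lower, against 47.8% of all tested genes. The log2 fold change of 0.68 ± 0.24 missed the threshold (edgeR adjusted p = 0.0563). Smg9 passed in 5 of the 16 other settings, among them DESeq2 (adjusted p = 0.0247) and edgeR without knockout replicate 2 (0.0416), and with GC and length offsets its log2 fold change was 0.35 (adjusted p = 0.295).

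Within libraries there were 7.38, 8.15 and 8.75 counts of Smg8 for each count of Smg1 in wild type and 10.3, 9.74 and 13.8 in knockout. The Smg9 to Smg1 count ratio was 0.103, 0.160 and 0.184 in wild type and 0.368, 0.260 and 0.365 in knockout. Both ratios were higher in all knockout libraries than in any wild-type library, by 0.46 and 1.18 on the log2 scale (exact two-sided permutation p = 0.1 each, adjusted 0.15). These are ratios of counts and depend on the lengths of both mRNAs, but the same lengths enter both genotypes unless isoforms differ. A trend over length or GC content that differs between libraries would not cancel, and the ratios were computed without offsets for it. With such offsets the log2 fold change was -0.22 for Smg1, 0.35 for Smg9 and 0.029 for Smg8, closer together than without them.

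**Figure D2:**
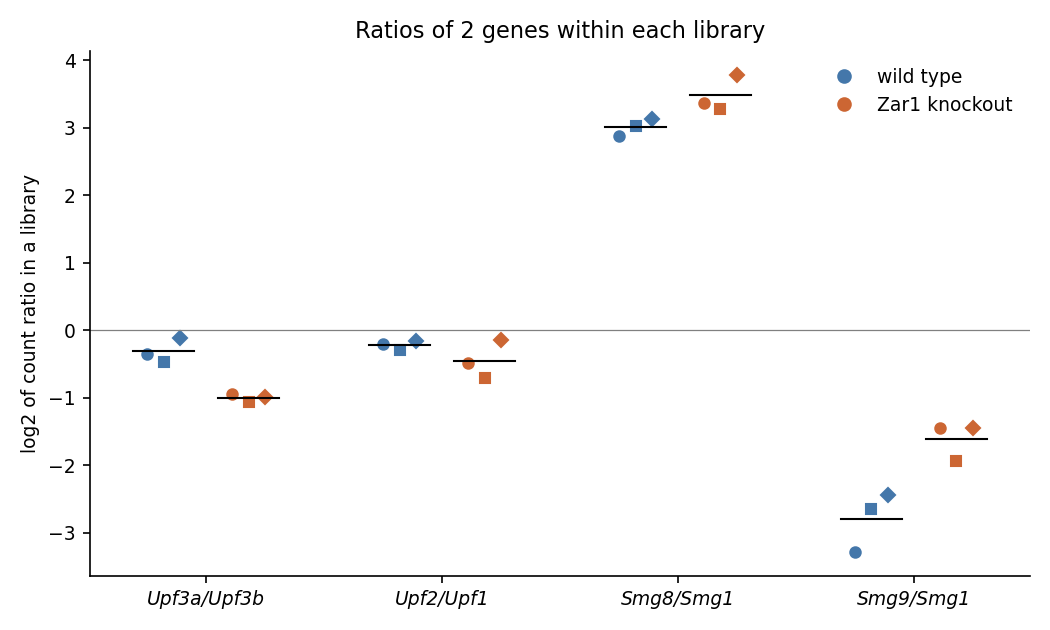
Log2 of the ratio of counts of 2 genes in the same library (vertical axis) for 4 pairs, in wild type (blue) and Zar1 knockout (orange), with circles, squares and diamonds for replicates 1, 2 and 3 and a line at each mean. The genotypes are apart for Upf3a/Upf3b, Smg8/Smg1 and Smg9/Smg1 and overlap for Upf2/Upf1.

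Of the members that act on phosphorylated UPF1, Smg5 and Smg6, Smg5 (ENSMUSG00000001415.11) was the less abundant. It had 194, 121 and 93 counts in wild type and 247, 242 and 255 in knockout, or 4.82, 3.43 and 2.87 CPM against 7.07, 6.49 and 6.98 CPM. The knockout libraries lay close together and all above wild type, where replicate 1 was the highest. The mean rose from 3.71 ± 1.01 to 6.85 ± 0.311 CPM (log2 fold change 0.88 ± 0.23, edgeR adjusted p = 0.0161). It missed the threshold when wild-type replicate 2 (adjusted p = 0.0595) or wild-type replicate 3 (0.0618) was left out.

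Smg6 (ENSMUSG00000038290.16), the endonuclease, had 18.8, 16.3 and 18.5 CPM in wild type and 16.5, 20.5 and 26.0 CPM in knockout. Of the knockout libraries, replicate 1 was inside the range of wild type and the others above it. The log2 fold change was 0.23 ± 0.17 (edgeR adjusted p = 0.333). When knockout replicate 3 was left out it was 0.049 (adjusted p = 0.827). In the annotation 126 bases of Smg6 exons lie opposite Srr and 117 opposite Gm12333.

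**Figure D3:**
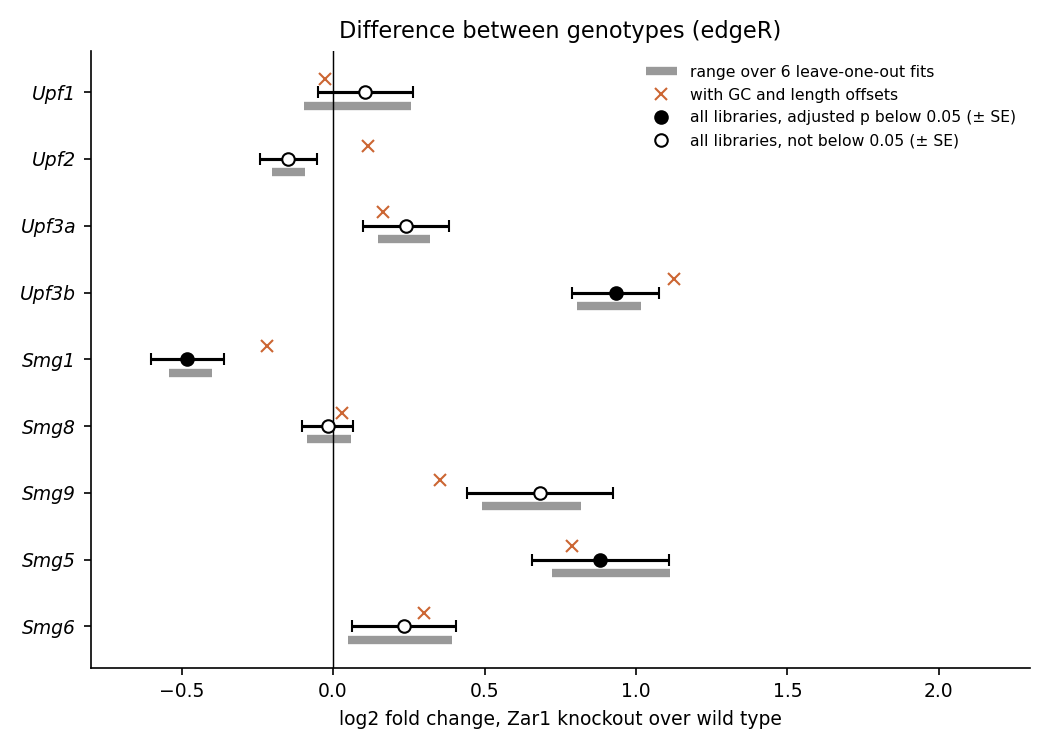
Log2 fold change of Zar1 knockout over wild type (horizontal axis) for the 9 members. Circles are the edgeR estimates ± SE from all 6 libraries, filled where the adjusted p was below 0.05 (Upf3b, Smg1 and Smg5), grey bars are the range over 6 fits that leave out 1 library each, and crosses are the estimates with GC and length offsets.

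Per kilobase of the longest coding transcript, the order of wild-type levels was Smg8, Upf1, Upf2, Upf3b, Upf3a, Smg6, Smg9, Smg1 and Smg5. Smg8 stood at 76.5 ± 3.17 CPM per kilobase (SD, n = 3), above 93.7% of 16430 tested genes with a known length. Upf1 stood at 13.3 ± 0.298, Upf2 at 10.2 ± 0.606, Upf3b at 7.02 ± 0.661 and Upf3a at 6.44 ± 0.388 CPM per kilobase. Smg6 was at 3.05 ± 0.239, Smg9 at 2.00 ± 0.470, Smg1 at 1.96 ± 0.131 and Smg5 at 0.833 ± 0.226 CPM per kilobase, the last above 27.2% of tested genes. Among neighbours in that order, the library ranges overlapped for Upf3b with Upf3a and for Smg9 with Smg1. In knockout those 2 pairs were apart, with Upf3b at 13.4 ± 2.13 and Upf3a at 7.61 ± 0.964 CPM per kilobase. Upf3b there also stood above Upf2 (9.20 ± 0.661) with no overlap, the reverse of wild type, and Smg6 with Smg9 and Smg1 with Smg5, apart in wild type, overlapped. With the median length of a gene's coding transcripts instead, Smg1 moved to 20.1 CPM per kilobase, since several short Smg1 transcripts are annotated, while Smg8 stayed the highest at 112. By that length wild-type Upf3b was at 10.5 ± 0.991 and apart from Upf3a at 6.44 ± 0.388, Upf2 was at 13.2, Smg9 at 5.73 and Smg6 at 5.44 CPM per kilobase. The order of members other than Smg8 at the top and Smg5 at the bottom thus depends on the transcript assumed.

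The summed level of the 9 members was 441, 453 and 446 CPM in wild type and 452, 466 and 464 CPM in knockout. The sum in knockout replicate 1 was inside the range of wild type and the other knockout sums were just above it. Across the 6 libraries the log CPM of Upf3b followed that of Smg5 (Pearson r = 0.85) and ran opposite to that of Smg1 (r = -0.80). Both values are descriptions over 6 libraries of 2 genotypes, in which any gene that differs between genotypes correlates with any other. The genes whose log CPM was most like that of Upf3b were Dmap1 (r = 0.999), Zfp692 (r = 0.996) and Herpud2 (r = 0.996), among 11001 genes, of which 1027 had r above 0.9. Zfp692, a zinc finger gene, went from 17.3, 20.3 and 16.4 CPM in wild type to 37.0, 44.1 and 30.6 CPM in knockout, whereas Dmap1 differed by a log2 fold change of 0.27 and Herpud2 by 0.18.

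Among 21 other genes of the pathway, 6 rose, 4 fell and 11 did not pass, with a median log2 fold change of 0.041, where 14.9% of all tested genes rose and 18.5% fell. Pabpc1, the cytoplasmic poly(A)-binding protein that counteracts NMD when it is close to the stop codon, had the largest rise. It went from 41.2, 26.2 and 25.6 CPM in wild type to 169.7, 144 and 158 CPM in knockout, 5.07-fold higher (log2 fold change 2.34 ± 0.18, edgeR adjusted p = 4.5e-05). Many pseudogenes resemble Pabpc1, and its count is uncertain where reads were shared with them. The AAA+ ATPases Ruvbl1 and Ruvbl2, which act in the assembly and activation of SMG1-type kinases, both rose. Ruvbl1 averaged 8.73 ± 1.90 CPM with and 21.5 ± 7.75 CPM without Zar1 (log2 fold change 1.30 ± 0.27, adjusted p = 0.00625) and Ruvbl2 from 94.9 ± 5.73 to 129 ± 5.62 CPM (0.45 ± 0.08, adjusted p = 0.00289). Ruvbl2 missed the threshold with GC and length offsets (adjusted p = 0.0501), and its exons overlap Gys1 and Lhb on the opposite strand.

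Of the exon junction complex, Rbm8a rose from 91.3 ± 7.63 to 123 ± 2.14 CPM (log2 fold change 0.43 ± 0.08, edgeR adjusted p = 0.00409). The other core genes, Eif4a3, Magoh, its paralog Magohb and Casc3, did not pass, with log2 fold changes between -0.14 and 0.09 (these 4 are named for completeness of the complex, after their values were seen). Of the release factors that end translation, Etf1 fell from 123 ± 2.86 to 92.4 ± 6.05 CPM (-0.41 ± 0.08, adjusted p = 0.00419), a call lost with GC and length offsets (adjusted p = 0.0666). Its partners Gspt1 and Gspt2, likewise named after the fact, had log2 fold changes of 0.21 and -0.18 and did not pass.

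Pnrc2, an adaptor between UPF1 and the decapping machinery, had the largest fall of the pathway genes. It had 118, 94 and 65 counts in wild type and 9, 5 and 17 in knockout (log2 fold change -3.14 ± 0.45, edgeR adjusted p = 0.000993), and was called in all 16 other settings. Gnl2, a nucleolar GTPase, rose by 0.49 ± 0.10 on the log2 scale (adjusted p = 0.00506). Nbas, the sixth gene that rose, named after its values were seen, acts at the endoplasmic reticulum. It averaged 16.0 ± 1.82 CPM with and 25.0 ± 4.43 CPM without Zar1 (adjusted p = 0.0147), above the threshold when wild-type replicate 1 (0.0533) or 3 (0.067) was left out. Sec13, of the COPII coat and the nuclear pore, fell by 0.28 on the log2 scale (adjusted p = 0.0143), and missed the threshold when wild-type replicate 2 (0.0592) or 3 (0.0642) was left out. Ncbp2, of the nuclear cap-binding complex, fell by 0.29 (adjusted p = 0.0451) and missed the threshold in 11 of 16 other settings, among them each fit that left out a library except knockout replicate 2 (adjusted p from 0.0784 to 0.161).

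**Figure D4:**
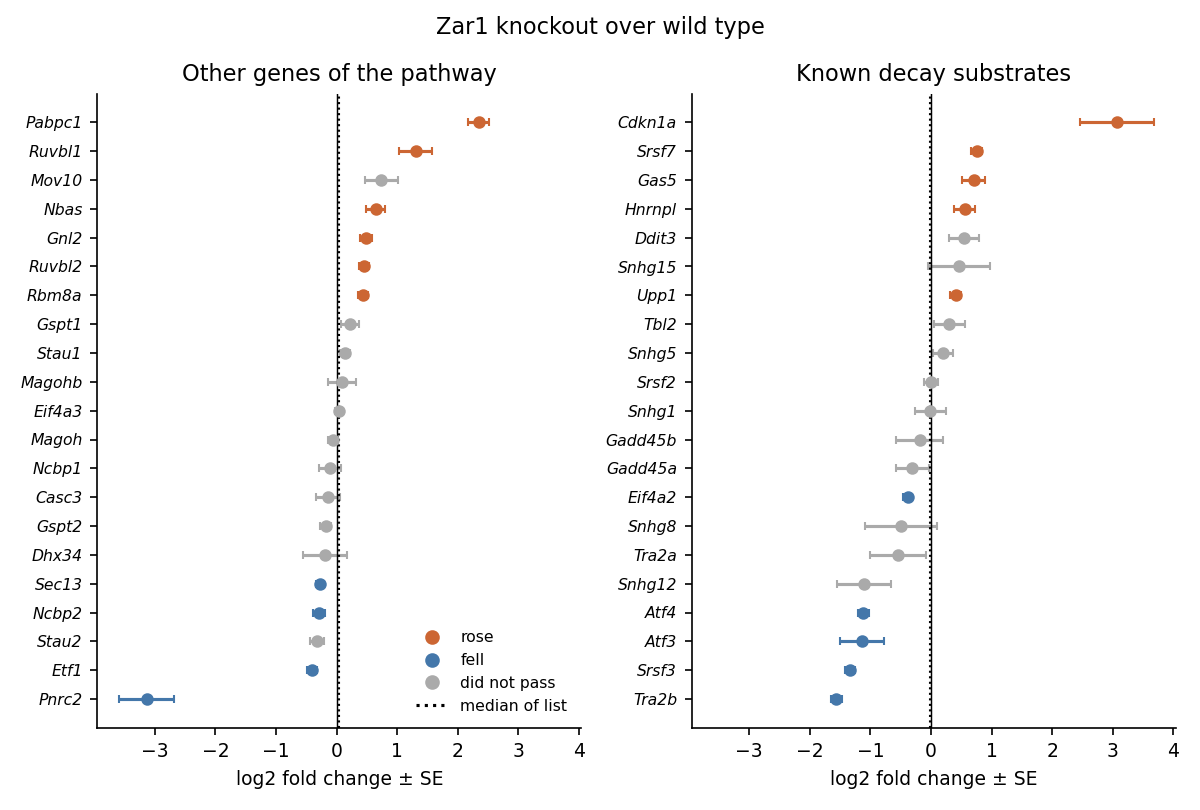
Log2 fold changes ± SE of Zar1 knockout over wild type (horizontal axes) for 21 other genes of the pathway (left) and 21 tested genes known as decay substrates (right). Orange genes rose, blue genes fell and grey genes did not pass, and dotted lines mark the list medians of 0.041 and -0.010. Both lists hold genes on either side of 0.

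Of 22 genes whose transcripts are known NMD substrates in other cells, 21 were tested. Of these 5 rose, 5 fell and 11 did not pass, with a median log2 fold change of -0.010, beside the same 14.9% and 18.5% of all tested genes. Gadd45g, the untested gene, had 2 counts in all. For every gene of the list, gene counts add up productive and degraded isoforms. Where only an isoform with an early stop codon is a substrate, as for the splicing factor genes, these levels do not measure NMD. The splicing factor genes Srsf3 and Tra2b fell, Srsf3 from 144 ± 4.26 to 57.1 ± 4.67 CPM (log2 fold change -1.33 ± 0.09, edgeR adjusted p = 2.31e-05) and Tra2b from 75.2 ± 1.54 to 25.5 ± 2.00 CPM (-1.56 ± 0.09, adjusted p = 1.85e-05). Srsf7 rose from 41.2 ± 2.22 to 69.3 ± 3.37 CPM (0.75 ± 0.09, adjusted p = 0.000336).

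The stress-response factor Atf4, a substrate through its upstream reading frames, had 175, 188 and 210.3 CPM in wild type and 93.9, 84.5 and 85.4 CPM in knockout. It fell by 1.12 on the log2 scale (SE 0.09, edgeR adjusted p = 5.67e-05). Atf3, a further stress-response factor, fell by 1.14 on that scale (SE 0.36, adjusted p = 0.038), from 2.26 ± 0.433 to 1.03 ± 0.387 CPM. That call was lost in every fit that left out a library except knockout replicate 1, with adjusted p from 0.0558 to 0.127, and with the replicate number as a block (0.0617).

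Gas5, a host RNA of small nucleolar RNAs and a classical substrate, had 177, 143 and 135 counts in wild type and 232, 295 and 219 in knockout. Its mean rose from 4.205 ± 0.174 to 6.85 ± 0.978 CPM (log2 difference 0.70 ± 0.19, edgeR adjusted p = 0.0184). It missed the threshold when wild-type replicate 2 (adjusted p = 0.0621), wild-type replicate 3 (0.064) or knockout replicate 2 (0.0514) was left out, and its exons overlap small nucleolar RNA genes. The other host RNAs of the list, Snhg1, Snhg5, Snhg8, Snhg12 and Snhg15, named after their values were seen, did not pass and had log2 fold changes between -1.11 and 0.46.

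Cdkn1a, the cell cycle inhibitor p21, went from 11, 2 and 7 counts in wild type to 43, 94 and 34 in knockout (log2 fold change 3.07 ± 0.61, edgeR adjusted p = 0.00493). In the annotation 273 bases of Cdkn1a exons lie opposite AC167363.2. Under the alternative filter of at least 1 CPM in 3 libraries Cdkn1a was not tested. Upp1, a uridine phosphorylase, rose from 283 ± 12.4 to 374 ± 40.5 CPM (0.40 ± 0.09, adjusted p = 0.0082), and missed the threshold with GC and length offsets (0.0515). Hnrnpl rose by 0.55 ± 0.17 (adjusted p = 0.0333), a call lost with those offsets (0.0554) and when wild-type replicate 1 (0.124), wild-type replicate 2 (0.0848), knockout replicate 1 (0.0713) or knockout replicate 3 (0.0842) was left out. Eif4a2 fell by 0.39 (adjusted p = 0.00613), and with GC and length offsets its log2 fold change was -0.14 (adjusted p = 0.223). Its exons hold small nucleolar RNA genes and overlap Rfc4 on the opposite strand, as those of Ncbp2 overlap Senp5 and those of Gnl2 overlap Dnali1.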

How the data were processed

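Unnormalized gene counts, as the authors deposited them, were read from 1 table for every library. The submitters' processing notes name HTSeq 0.13.5, STAR 2.7.8a, cutadapt 2.8 and bcl2fastq 2.20.0.422, and genome build mm39. Annotation release and strand setting were not given in the sources used here. Summary rows stayed out of library sizes. Reads outside genes were 4.84% to 5.7%, ambiguous reads 4.21% to 4.42% and multiply aligned reads 13.9% to 15%. Symbols came from a name table that covered 52093 of 53700 genes.

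Counts were tested with edgeR 4.0.16 in R 4.3.3 in a quasi-likelihood fit by genotype alone, after filterByExpr and TMM scaling. Tests were two-sided, with Benjamini-Hochberg adjustment over 16473 genes. Standard errors are the absolute log2 fold change over the square root of F. The steps were also run on simulated counts in which few genes changed and all genes shared a dispersion. These data differ in both, so that run gives no error rate for them. Alternatives were other scaling factors (RLE, upper-quartile, none), 2 other filters, DESeq2 1.42.0, limma-voom (limma 3.58.1), a replicate block, offsets from lowess trends of every library over GC content and length of transcripts (99.7% of tested genes covered), and leaving out each library. Transcript lengths and ends came from GENCODE M21 on GRCm38. Ratios used exact permutation tests in Python 3.11.15. Of 6 ratios tested, 2 are not reported here, nor is 1 gene of the pathway that they used.

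The 9 members and both gene lists were chosen with earlier results of these data known. Named were all members, Zar1, and from each list up to 5 called genes per direction by adjusted p, and the 3 genes with a mean of at least 1 CPM most correlated with Upf3b, the called member with the smallest adjusted p. Other genes are marked where named, or are markers, overlapping genes or Gadd45g.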

Additional observations from a re-analysis of the deposited data

How the results depend on the processing

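Of the 9 members, Upf3b kept its call in all 16 alternatives. With GC and length offsets 0 members fell, alone and with the replicate block added, and without wild-type replicate 1 or 2 none fell either. Over the 6 fits that left out 1 library each, between 1 and 3 members rose and between 0 and 1 fell, while 1541 (without wild-type replicate 3) to 2509 of all genes rose and 2285 to 3125 fell. The other pathway genes had 2 lower with GC and length offsets, alone and with the block, and 2 to 5 lower over the leave-one-out fits. Of the substrates 3 rose with those offsets, alone and with the block, 3 fell with offsets and block together, and 3 to 4 rose over the leave-one-out fits. The signs of the smallest differences turned. The log2 fold change of Upf1 was -0.028 with the offsets, -0.065 with offsets and block and between -0.096 (without knockout replicate 2) and 0.26 (without knockout replicate 3) over the leave-one-out fits, that of Upf2 was 0.12 with the offsets and 0.12 with offsets and block, and that of Smg8 was 0.033 with upper-quartile factors, 0.029 with the offsets, 0.026 with offsets and block and between -0.085 and 0.058 over the leave-one-out fits. The cause was not tested.

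Same-numbered libraries of the genotypes did not deviate together (correlations of -0.0090, -0.042 and -0.025 for numbers 1, 2 and 3). These values cannot tell if same-numbered pools were collected or prepared together, and the labels give only a replicate number. With the replicate block 2 members rose and 1 fell, as without it, and 2078 genes rose and 2760 fell in all. For the ratios the block left the log2 difference of Upf3a to Upf3b at -0.69, with 0.25 as the smallest exact p that 3 pairs allow. Depth limits the low genes, among them Smg5, Smg9, Pnrc2 and Cdkn1a, which have at most 305 counts in any library.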
